A study of Homo sapiens with 12 samples.

Results

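The S100 genes encode small calcium-binding proteins, and the 8 described here are S100A2, S100A3, S100A4, S100A6, S100A10, S100A11, S100A13 and S100A16. They were taken by symbol from a table of 60623 genes, in which each symbol occurred once, and were chosen by their TPM values in these same 12 libraries. Their levels, changes and counts are therefore given as a description, without a p-value. Messenger RNA came from HMEC-1, an immortalised human endothelial line made from small vessels of the skin. The 4 groups of 3 libraries each were PF9363 (30 µg/mL of PF9363, labelled an inhibitor of the acetyltransferases KAT6A and KAT6B, with oncostatin M), CBP300 (10 µg/mL of CBP300, labelled an EP300 inhibitor, with oncostatin M), OSM (oncostatin M alone) and CT (fresh medium). All were harvested at 48 h. The growth medium, shared by all groups, held epidermal growth factor, hydrocortisone and serum. Oncostatin M is a cytokine of the interleukin-6 family; its dose reads 10 ng/mL in the design text and 10 µg/mL in the sample labels, which was not settled. Both inhibitors were given only together with oncostatin M, and the labels name no vehicle for CT or OSM. Whether the replicates came from separate cultures is not in the labels, so the p-values given for other genes measure only the spread between these libraries.

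S100 proteins are dimers that bind calcium through a pair of EF hands, open a hydrophobic face and dock onto a partner protein, so most of them act by what they bind. Partners include annexins, which bind membranes, and nonmuscle myosin, which drives cell movement. Some S100 proteins are also secreted and act on surface receptors such as AGER. In endothelium the family is best known for S100A10, which with annexin A2 forms a binding site for plasminogen and its activator at the cell surface.

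The libraries held 13418045 to 21072304 reads as recovered from the TPM steps, apart from CBP300 replicate 2 with 73297452. The mean absolute log2 difference of a library from its own group was largest for CT replicate 1 at 0.53, then 0.42 for PF9363 replicate 3 and 0.17 to 0.40 in the other 10 libraries, so that PF9363 replicate 3 lay close above the next. Levels also depended on the GC content of a gene to a degree that differed between groups, by -0.15 to 0.11 (log2 per 10 points of GC) in PF9363, -0.35 to -0.29 in CBP300, -0.11 to 0.01 in OSM and 0.22 to 0.60 in CT. The longest transcripts of the 8 genes had 54.0 to 60.2% GC and 594 to 2184 bases, against medians of 48.4% and 2786 bases over the tested genes. Changes are therefore given a second time as corrected values, after each library's dependence on GC content and on transcript length had been smoothed and subtracted. SOCS3, a feedback gene of this cytokine family, stood at 352 TPM in PF9363, 449 TPM in CBP300, 382 TPM in OSM and 8.84 TPM in CT. All 12 endothelial markers on the list were measured, among them PECAM1 and CDH5, but VWF was at 0.733 to 0.949 TPM in CBP300 and EMCN stayed under 1 TPM in both inhibitor groups.

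All 8 genes lie on the minus strand of chromosome 1 (GRCh38, GENCODE release 29), within 1648 kb. S100A10 (151982915 to 151994390) and S100A11 (152032506 to 152047907) are 38.1 kb apart. The other 6 form a second block that begins 1487 kb further on and spans 96.8 kb: S100A6 (153534599 to 153536244), S100A4 (153543613 to 153550136), S100A3 (153547329 to 153549372), S100A2 (153561108 to 153567890), S100A16 (153606886 to 153613145) and S100A13 (153618787 to 153631360). S100A3 lies inside the annotated S100A4 gene on the same strand, so reads in their shared stretch could go to either. S100A13 overlaps AL162258.1 on the same strand and S100A1 on the other strand. S100A6 and S100A11 overlap BX470102.1 and AL450992.1 on the other strand, and whether counting used strand is not known. The effect of these overlaps was not tested. The 8 pseudogenes of S100A11 in the table were at 0 in every library. Of 81 other annotated genes between the outermost members, 47 were at 0 in all libraries and 6 had enough signal to be tested. These 6 include S100A9 and S100A14, described below. The 8 members were chosen by their TPM values, so their all being tested is no contrast with these neighbours.

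The 250 bases before the RefSeq start are printed for 5 members (GRCh38.p14), since these genes shared a locus but differed in how their levels moved. S100A6 and S100A4 had the most similar profiles, S100A11 and S100A10 are neighbours that differed between the inhibitors, and S100A3 alone held a STAT-type match. Capitals mark matches, on either strand, to a STAT motif (TTCNNNGAA), an AP-1 motif (TGANTCA), an SP1-type GC box (GGGCGG) or a TATA box (TATAAA).
S100A6, chr1:153535992-153536241, minus strand: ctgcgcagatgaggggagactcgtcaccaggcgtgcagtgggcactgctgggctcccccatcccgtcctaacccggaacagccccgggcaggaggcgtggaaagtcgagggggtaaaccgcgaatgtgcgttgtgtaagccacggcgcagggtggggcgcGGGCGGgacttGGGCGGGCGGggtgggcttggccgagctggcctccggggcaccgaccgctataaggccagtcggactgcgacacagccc
S100A4, chr1:153545807-153546056, minus strand: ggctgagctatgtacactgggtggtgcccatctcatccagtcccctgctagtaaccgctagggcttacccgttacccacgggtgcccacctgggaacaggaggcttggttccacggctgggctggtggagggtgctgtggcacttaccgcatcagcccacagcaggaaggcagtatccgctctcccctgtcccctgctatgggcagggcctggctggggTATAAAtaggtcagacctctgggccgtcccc
S100A11, chr1:152037005-152037254, minus strand: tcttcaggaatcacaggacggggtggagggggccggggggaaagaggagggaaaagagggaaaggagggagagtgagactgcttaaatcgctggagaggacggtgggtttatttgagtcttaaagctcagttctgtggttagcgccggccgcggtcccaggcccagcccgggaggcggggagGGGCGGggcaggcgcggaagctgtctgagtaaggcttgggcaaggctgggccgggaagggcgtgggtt
S100A10, chr1:151993860-151994109, minus strand: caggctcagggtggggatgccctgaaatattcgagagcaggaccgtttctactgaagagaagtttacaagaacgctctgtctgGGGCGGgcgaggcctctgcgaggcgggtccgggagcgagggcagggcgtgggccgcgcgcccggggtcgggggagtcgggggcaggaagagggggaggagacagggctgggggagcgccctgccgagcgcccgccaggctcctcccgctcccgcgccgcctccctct
S100A3, chr1:153549259-153549508, minus strand: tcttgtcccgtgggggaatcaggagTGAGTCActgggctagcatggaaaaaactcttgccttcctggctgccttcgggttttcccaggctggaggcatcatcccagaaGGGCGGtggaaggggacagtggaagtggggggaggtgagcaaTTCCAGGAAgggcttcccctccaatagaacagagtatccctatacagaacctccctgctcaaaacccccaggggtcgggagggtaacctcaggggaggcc
The S100A6 promoter held 3 GC boxes, of which a pair overlap, and 24 CpG dinucleotides, whereas that of S100A4 held a TATA box, no GC box and 7 CpG. The S100A10 promoter also held 24 CpG and S100A11 held 15, each with 1 GC box, and S100A3 held 4 CpG with 1 match each to the STAT, AP-1 and GC box motifs. Over all 35116 RefSeq promoters of this length the median was 11 CpG. Counting every RefSeq start of the 8 genes (12 promoters), a STAT match was found in 1 (6.57% of all promoters), an AP-1 match in 2 (6.57%), a GC box in 6 (42.6%) and a TATA box in 2 (10.7%). These matches describe the letters only.

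Together the 8 genes made up 0.48, 0.49 and 0.66% of all TPM in the PF9363 libraries, 0.24, 0.23 and 0.23% in CBP300, 0.31, 0.34 and 0.34% in OSM and 1.24, 0.87 and 0.96% in CT. TPM (transcript abundance scaled to the same total in every library) is a level per transcript length, so it can be compared between genes. The 4 groups did not overlap in this sum, which was highest in CT and lowest in CBP300. In bulk RNA, fewer cells of a kind and less RNA per cell cannot be told apart. Nearly all of the sum came from S100A6, S100A10, S100A11 and S100A16, and its make-up differed between groups. S100A6 took 20.4% ± 1.26 of the sum in PF9363, 32.1% ± 0.808 in CBP300, 28.5 to 29.4% in OSM and 51.4% ± 1.29 in CT (mean ± SD, n = 3, as below). S100A11 took 46.7% ± 0.643 in PF9363, 24.0% ± 0.231 in CBP300, 30.6% ± 0.751 in OSM and 18.3% ± 0.473 in CT. Thus S100A6 was the largest part in CT, and S100A11 in PF9363.

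**Figure D1:**
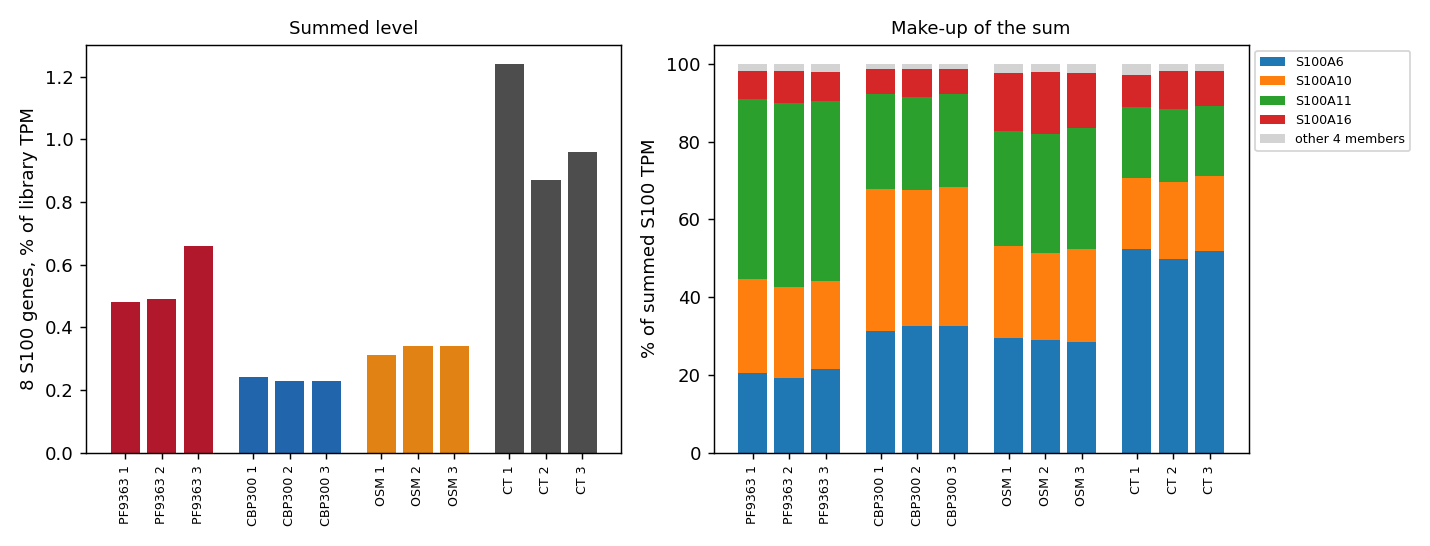
Left, summed TPM of the 8 S100 genes as a percentage of all TPM, 1 bar per library. Right, the share of that sum taken by each gene in the same libraries; S100A6 holds 49.9 to 52.3% of it in CT, and S100A11 holds 46.2 to 47.4% in PF9363.

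The order of the levels also differed between groups. In PF9363 it ran S100A11, S100A10, S100A6, S100A16, S100A13, S100A2, S100A3 and S100A4, where the ranges of S100A10 and S100A6 overlapped and so did those of the last 3. In CBP300 it ran S100A10, S100A6, S100A11, S100A16, S100A13, S100A4, S100A2 and S100A3, where S100A3 overlapped both S100A2 and S100A4. In OSM it ran S100A11, S100A6, S100A10, S100A16, S100A13, S100A4, S100A3 and S100A2, where S100A11 overlapped S100A6 and the last 3 overlapped in turn. In CT it ran S100A6, S100A10, S100A11, S100A16, S100A13, S100A4, S100A2 and S100A3, with overlap between S100A10 and S100A11 and between S100A2 and S100A3. S100A16 and S100A13 kept the fourth and the fifth place in all 4 groups. Ratios within a library do not depend on its scaling: S100A11 over S100A6 was 2.29 ± 0.168 in PF9363, 0.748 ± 0.0267 in CBP300, 1.06 ± 0.043 in OSM and 0.356 ± 0.0178 in CT. The 4 groups did not overlap in this ratio. It still carries each library's dependence on GC content, since S100A11 had 54.2% GC and S100A6 60.2%, and no corrected ratio was computed.

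S100A10 does not bind calcium itself and forms a stable complex with annexin A2. It had 1164, 1157 and 1485 TPM in PF9363, 875, 799 and 839.5 TPM in CBP300, 735, 754 and 798 TPM in OSM, and 2299.8, 1731 and 1851 TPM in CT. All CT libraries lay above all others, PF9363 came next, and CBP300 lay just above OSM. S100A11, which binds annexin A1 and takes part in membrane repair, had 2226, 2330.1 and 3068 TPM in PF9363, 579, 545 and 562 TPM in CBP300, 924, 1032 and 1051 TPM in OSM, and 2249, 1638 and 1718 TPM in CT. PF9363 overlapped CT here, and both lay above OSM, with CBP300 lowest. S100A6 (calcyclin), a partner of CACYBP and of annexins that is abundant in dividing cells, had 992, 940.0 and 1425 TPM in PF9363, 743, 744 and 766 TPM in CBP300, 912, 976 and 956 TPM in OSM, and 6488, 4352 and 4987 TPM in CT. CT was far above the other groups, in which PF9363 overlapped OSM and CBP300 lay below both.

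S100A16, a widely expressed member linked to fat cell formation in mouse, had 351, 402 and 491 TPM in PF9363, 154, 161 and 152 TPM in CBP300, 463, 535 and 469.8 TPM in OSM, and 1039.9, 844 and 866 TPM in CT. PF9363 overlapped OSM, whereas every CBP300 library was below every other library. S100A13, which takes part in the export of FGF1, a growth factor that lacks a signal peptide, had 76.2, 78.1 and 123 TPM in PF9363, 29.9, 27.3 and 25.6 TPM in CBP300, 61.9, 66.7 and 71.1 TPM in OSM, and 295, 133 and 162 TPM in CT. The 4 groups did not overlap, and CT replicate 1 and PF9363 replicate 3 were the highest of their groups, as for most of the 8 genes.

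The 3 remaining members were scarce. S100A4, which binds nonmuscle myosin and is known for its part in cell movement and metastasis, had 1.74, 3.67 and 5.42 TPM in PF9363, 1.87, 0.71 and 2.04 TPM in CBP300, 2.15, 2.58 and 2.97 TPM in OSM, and 25.4, 13.4 and 15.4 TPM in CT. CT stood far above the other groups, which rested on 7 to 27 reads a library, and PF9363 overlapped both CBP300 and OSM. S100A2, a mainly nuclear member found in epithelia, had 4.12, 3.17 and 4.42 TPM in PF9363, 0.229, 0.701 and 0.534 TPM in CBP300, 0.986, 1.05 and 2.24 TPM in OSM, and 11.8, 6.23 and 6.99 TPM in CT. S100A3, a cysteine-rich protein of the hair cuticle, had 3.42, 4.37 and 3.39 TPM in PF9363, 0.211, 0.798 and 0.327 TPM in CBP300, 1.41, 1.94 and 2.83 TPM in OSM, and 6.43, 3.39 and 3.98 TPM in CT. For both genes CBP300 was lowest and OSM next, and for S100A3 PF9363 overlapped CT. The counting error at this depth was wide: 1 read of S100A3 in CBP300 replicate 1 allowed 0.00533 to 1.17 TPM, and 8 reads of S100A4 in PF9363 replicate 1 allowed 0.749 to 3.42 TPM (95% exact Poisson intervals, counting error only).

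**Figure D2:**
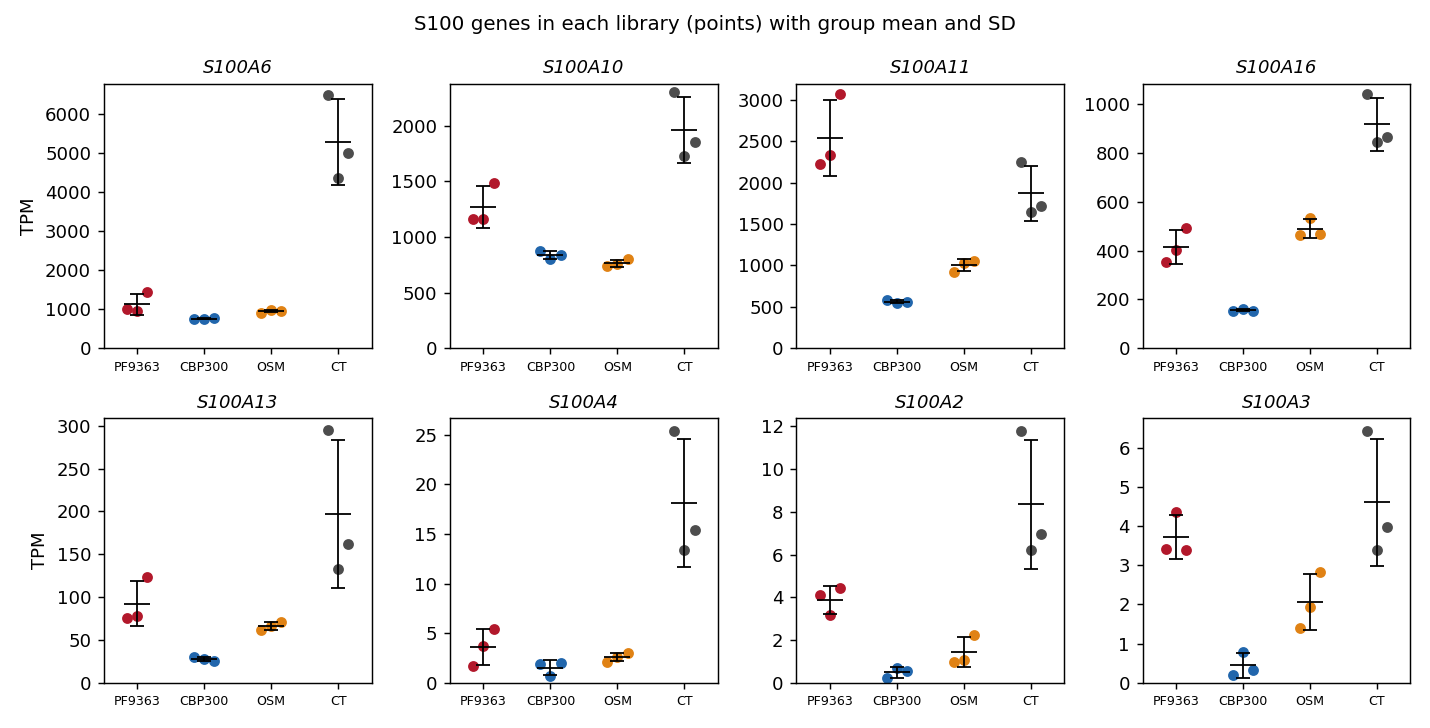
TPM of each S100 gene in the 12 libraries (points), with group mean and SD (n = 3), each panel on its own linear axis from 0. The CT mean is highest for 7 genes, whereas S100A11 averages 2541 TPM in PF9363 and 1868 TPM in CT.

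OSM set against CT addresses the response to the cytokine itself, and all 8 S100 genes were lower in OSM, with no overlap between the groups. Changes are on the log2(TPM + 1) scale, which understates those of scarce genes. S100A6 averaged 948 ± 33.1 TPM in OSM and 5276 ± 1097 TPM in CT, a log2 change of -2.46 (SE 0.17). S100A4 averaged 2.57 ± 0.412 TPM in OSM and 18.1 ± 6.41 TPM in CT, a change of -2.37 (SE 0.34). S100A2 had -1.94 (SE 0.26), S100A13 -1.47 (SE 0.27) and S100A10 -1.35 (SE 0.12). S100A16 was at -0.90 (SE 0.13), S100A11 at -0.89 (SE 0.14) and S100A3 at -0.86 (SE 0.24). The order of the changes depended on the scale: as a ratio of mean TPM, OSM over CT, the values were 0.142 for S100A4, 0.171 for S100A2, 0.18 for S100A6, 0.447 for S100A3, 0.534 for S100A16 and 0.537 for S100A11. The median of the 8 was -1.41, against 0.31 over all 16848 tested genes.

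By limma's test with Benjamini-Hochberg adjustment over all tested genes (adjusted p under 0.05), 8 of 8 were called lower, where 15.2% of all tested genes were lower and 42.1% higher. Of all tested genes, 18.8% were lower without overlap and 48.6% higher. In corrected values 7 of 8 were called lower, where 27.3% of all genes were lower and 23.7% higher. The exception was S100A3, with a corrected change of -0.40, and it was also not called without OSM replicate 1 (-0.70). The corrected change was -1.96 for S100A6 and -1.99 for S100A4. It was -1.60 for S100A2 and -1.39 for S100A13. S100A11 and S100A16 came to -0.54 and -0.53, the smallest corrected changes beside that of S100A3. Without CT replicate 1 and PF9363 replicate 3 the changes ran from -0.64 for S100A3 to -2.30 for S100A6, and 8 of 8 were called, where 16.9% of all tested genes were lower and 41.5% higher. The division of all genes into higher and lower depended on scaling, with 7087 higher and 2553 lower as deposited, 5031 and 4696 with median-of-ratios scaling and 3966 and 4564 in corrected values.

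PF9363 set against OSM addresses what the KAT6A/B inhibitor changed under the cytokine. S100A11 averaged 2541 ± 459 TPM in PF9363 and 1003 ± 68.8 TPM in OSM, a log2 change of 1.33 (SE 0.14). S100A10 averaged 1269 ± 187 TPM in PF9363 and 762 ± 32.7 TPM in OSM, a change of 0.73 (SE 0.12). The scarce S100A2 and S100A3 were higher too, by 1.04 (SE 0.26) and 0.65 (SE 0.24). As a ratio of mean TPM, PF9363 over OSM, S100A2 was at 2.74, above the 2.53 of S100A11. These 4 were called higher, where 11.3% of all tested genes were higher and 35.6% lower, and the median of all tested genes was -0.31, against 0.54 for the 8. The call for S100A3 was not kept under 12 of the alternatives, among them the omission of any 1 PF9363 library (changes 0.55 to 0.70), of OSM replicate 1 (0.49) or 2 (0.63), of CBP300 replicate 1 or 3, or of CT replicate 3 (0.65 in these 3).

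The other 4 were not called. S100A13 was higher without overlap, at 0.43 (SE 0.27), which was 0.21 without PF9363 replicate 3, and called without CT replicate 1, at 0.43. Together with the 4 called genes this made 5 of 8 higher without overlap, where 14.4% of all tested genes were higher and 45.5% lower in that sense. S100A4 differed by 0.29 (SE 0.34) and S100A6 by 0.21 (SE 0.17), changes that came to 0.01 and 0.03 without PF9363 replicate 3, to 0.62 for S100A4 without PF9363 replicate 1 and to 0.33 for S100A6 without PF9363 replicate 2. S100A16 differed by -0.25 (SE 0.13), which was -0.14 without PF9363 replicate 1, -0.38 and called lower without PF9363 replicate 3, but 0.12 with median-of-ratios scaling and -0.03 in corrected values, so its direction was not settled. In corrected values 6 of 8 were called higher, where 27.7% of all genes were higher and 24.6% lower, with S100A6 (0.39) and S100A13 (0.72) added. All genes divided into 1901 higher and 5993 lower as deposited, 3711 and 3772 with median-of-ratios scaling and 4632 and 4109 in corrected values. The range of S100A11 in PF9363 thus overlapped that in CT, while those of S100A6 and S100A4 overlapped OSM. This comparison and that of OSM with CT share the OSM libraries.

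CBP300 set against OSM addresses the same for the EP300 inhibitor. S100A16 averaged 156 ± 4.65 TPM in CBP300 and 489 ± 39.6 TPM in OSM, a log2 change of -1.64 (SE 0.13). S100A13 averaged 27.6 ± 2.17 TPM in CBP300 and 66.6 ± 4.62 TPM in OSM, a change of -1.24 (SE 0.27). S100A3 differed by -1.08 (SE 0.24) and S100A11 by -0.83 (SE 0.14). These 4 of 8 were called lower, where 13.3% of all tested genes were lower and 13.8% higher, and the same 4 in corrected values (14.3% of all genes), with changes of -1.27 for S100A16, -1.05 for S100A13, -0.65 for S100A3 and -0.51 for S100A11. The median change was -0.76, against 0.11 over all tested genes.

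Of the 4 that were not called, S100A2 differed by -0.68 (SE 0.26), S100A4 by -0.53 (SE 0.34) and S100A6 by -0.34 (SE 0.17), all without overlap, so that 7 of 8 were lower without overlap, where 25.5% of all tested genes were lower and 41.0% higher in that sense. S100A6 was at 0.12 in corrected values, so its direction depended on the correction, and S100A4 was at -0.27 without CBP300 replicate 2. The S100A4 ranges nearly met, at 2.04 TPM on 7 reads in CBP300 replicate 3 and 2.15 TPM on 12 reads in OSM replicate 1. S100A2 was at -0.45 without OSM replicate 3 and was called lower without CT replicate 1, with the change at -0.68. S100A10 stood apart from the rest: at 838 ± 37.7 TPM in CBP300 and 762 ± 32.7 TPM in OSM it was higher by 0.14 (SE 0.12) without overlap, though not called, and by 0.49 and called in corrected values (17.5% of all genes were called higher). The gap was narrow, with 799 TPM in CBP300 replicate 2 and 798 TPM in OSM replicate 3. Their 95% counting intervals, 787 to 812 and 773 to 824 TPM, overlapped. Relative to the median of all tested genes the S100A10 change as deposited was 0.03. Without CT replicate 1 and PF9363 replicate 3, which are in neither group but share the estimate of spread, 6 were called lower and S100A10 higher. Calls were also more frequent over all tested genes in that fit, with 21.9% lower and 36.1% higher. Summed endothelial markers were also lower, at 679.7 to 718 TPM in CBP300 and 1565 to 1628 TPM in OSM. The same sum was 1183 to 1370.4 TPM in PF9363 and 1209.7 to 1319.9 TPM in CT. Within it ENG averaged 290.3 TPM in CBP300 and 736 TPM in OSM, whereas KDR averaged 54.2 and 54.5 TPM. The part of these markers in the result was not tested.

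PF9363 and CBP300 are compared directly as given, at different doses, so the values stand side by side without a reading of the compounds against each other. S100A11 averaged 2541 ± 459 TPM in PF9363 and 562 ± 17.3 TPM in CBP300, a log2 difference of 2.16 (SE 0.14). The difference was 1.72 for S100A2 (SE 0.26) and for S100A3 (SE 0.24), 1.68 (SE 0.27) for S100A13 and 1.39 (SE 0.13) for S100A16. S100A10 at 0.59 (SE 0.12) and S100A6 at 0.55 (SE 0.17) differed least among the 7 that were called higher, where 14.5% of all tested genes were higher and 45.1% lower, and S100A6 was at 0.36 without PF9363 replicate 3. With quantile scaling these were at 0.14 for S100A10 and 0.15 for S100A6 and were not called. The same 7 did not overlap (17.5% of all tested genes were higher without overlap and 53.6% lower) and were also called in corrected values (27.6% of all genes, with 27.9% lower). S100A4, at 0.82 (SE 0.34), overlapped and was not called, but was called without PF9363 replicate 1 (1.15) or CT replicate 1 (0.82), and was at 0.54 without PF9363 replicate 3. All genes divided into 2450 higher and 7592 lower as deposited, 4398 and 4705 with median-of-ratios scaling and 4620 and 4670 in corrected values.

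**Figure D3:**
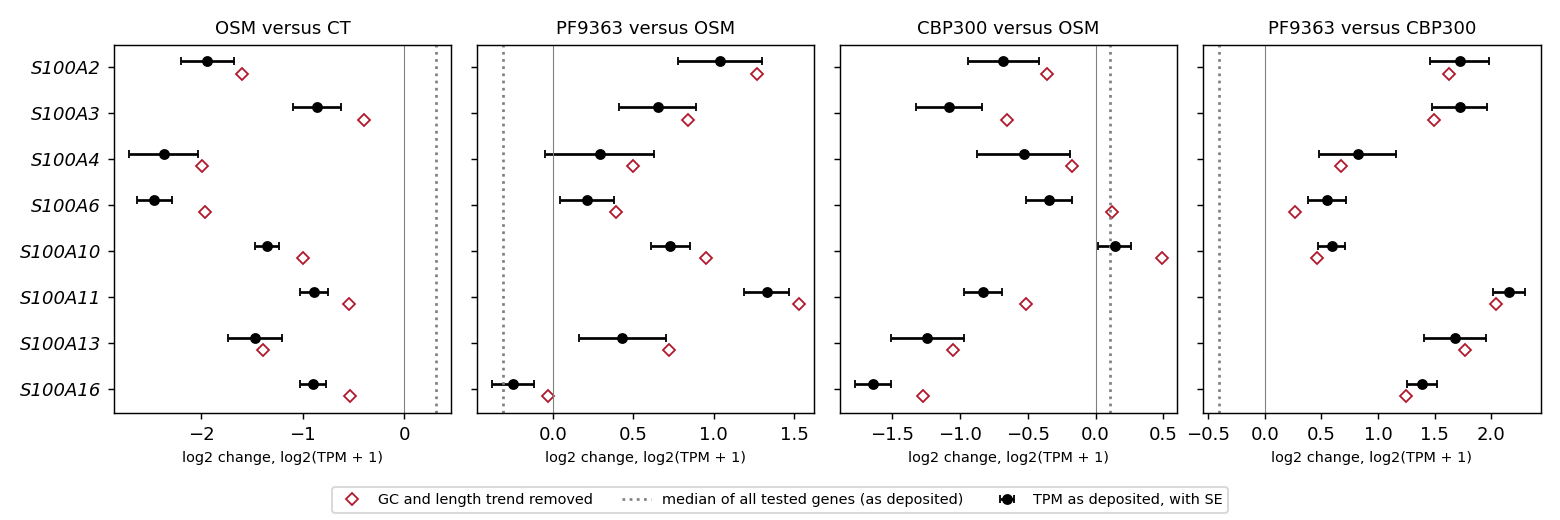
Log2 change of each S100 gene on the log2(TPM + 1) scale in 4 comparisons (filled points, bars are SE from limma), with the value after removal of the GC and length trend (open diamonds) and the median of all tested genes (dotted line). All 8 lie below 0 in OSM versus CT, and S100A11 is the farthest right in PF9363 versus OSM (1.33) and PF9363 versus CBP300 (2.16).

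Profiles over the 12 libraries were compared as the root mean square difference of log2(TPM + 1), each gene centred on its own mean, as a description. Among the members S100A4 and S100A6 were nearest, at 0.29, and each was among the 3 tested genes nearest to the other. S100A6 and S100A11 were farthest apart, at 0.97, and the neighbours S100A10 and S100A11 differed by 0.58. S100A13 was at 0.33 from both S100A16 and S100A2. Over all tested genes, CRYAB, a small heat shock protein, was nearest to S100A6 at 0.23, and MYLK2, a myosin light chain kinase, followed S100A4 at 0.30. LMNA, the gene of lamin A and C, was nearest to S100A10 at 0.09, followed by GPX4 (0.10) and NANS (0.11). KANK3 at 0.10, CCM2L at 0.15 and PHLDA2 at 0.17 were nearest to S100A11. VAMP5 (0.20) and HSPB1 (0.23), another small heat shock protein, were nearest to S100A13. PHLDA3 and ATOH8, both at 0.15, were nearest to S100A16. For the scarce genes the nearest were SIGIRR to S100A3 (0.21) and KCNN4 to S100A2 (0.29).

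Of the other 13 S100 genes on the list, 3 were at 0 in every library, 7 others were too low to test, and 3 were tested. S100A9, a subunit of the inflammatory complex calprotectin, had 6.81, 6.76 and 9.28 TPM in PF9363, 0 TPM in all CBP300 libraries, 0.591, 1.42 and 1.51 TPM in OSM, and 0, 5.92 and 1.33 TPM in CT. It rose in PF9363 versus OSM by 2.0 (log2, SE 0.53, limma adjusted p = 0.0101), on 19 to 28 reads a library in PF9363 and 2 to 4 in OSM, a call lost with a pseudocount of 0.1 TPM. S100P, a member found in placenta and in tumours, had 1.74, 3.9 and 1.21 TPM in PF9363, 0 TPM in CBP300 and in OSM, and 0, 0.379 and 0.323 TPM in CT. It reached 1 TPM only in the PF9363 libraries, and so entered the test through that group alone. No p-value is therefore given for its differences from OSM and CBP300. It had 3 to 9 reads a library in PF9363, and a count of 0 in OSM allows up to 3 reads, or 1.08 to 1.38 TPM. S100A14, an epithelial member that overlapped between PF9363 and OSM, had 2.41, 1.12 and 0.743 TPM in PF9363, 0.139, 0.445 and 0.431 TPM in CBP300, 0, 0.798 and 0.169 TPM in OSM, and 1.49, 0.559 and 0.834 TPM in CT. S100A14 reached 1 TPM only in PF9363 replicates 1 and 2 and CT replicate 1, and so entered the test through no OSM or CBP300 library. No p-value is therefore given for its differences between PF9363 and those groups. Its change in PF9363 versus OSM was 0.86 (SE 0.29). The call was lost without PF9363 replicate 1 (0.59) or 2 (0.93) and without OSM replicate 1 (0.68) or 3 (0.80). S100A9 also passed in PF9363 versus CBP300 (limma adjusted p = 0.000599), and S100A14 was higher there by 0.81 (SE 0.29). The call for S100A14 was lost there without any 1 CBP300 library (0.69 to 0.87) or without PF9363 replicate 1 (0.53) or 2 (0.87). In OSM versus CT none of the 3 tested genes passed (limma adjusted p = 0.109 to 0.71), and in CBP300 versus OSM S100A9 passed without CT replicate 1 and PF9363 replicate 3.

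S100A8, the partner of S100A9 in calprotectin, was too low to test, with 10 reads in CT replicate 2 and at most 3 elsewhere. CD14, a monocyte marker that endothelium can express, was at 44.0, 47.3 and 59.6 TPM in PF9363, 15.6 to 17.2 TPM in CBP300, 12.9 to 16.3 TPM in OSM and 2.96 to 4.11 TPM in CT, whereas the leukocyte marker PTPRC was at most 0.0778 TPM in any library. Of the 12 leukocyte markers 2 were tested, and their summed level ran from 50.4 to 67.1 TPM in PF9363, 17.1 to 19.1 TPM in CBP300, 16.8 to 20.7 TPM in OSM and 5.83 to 8.58 TPM in CT. Of 9 epithelial markers 4 were tested, with a sum of 2982 to 4235 TPM in PF9363, 580.2 to 592 TPM in CBP300, 918 to 1020.4 TPM in OSM and 1151 to 1587 TPM in CT, of which KRT18, a keratin of simple epithelia, made up 2636 to 3813 TPM in PF9363, 512 to 521 TPM in CBP300, 744 to 811 TPM in OSM and 761 to 1039 TPM in CT. CDH1 was at most 0.101 TPM and GRHL2 was at 0 in every library.

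Annexins are the membrane-binding partners of S100A10, S100A11 and S100A6, and 8 of 13 were tested. In OSM versus CT 3 fell and 1 rose, with a median of -0.25, where 15.2% of all tested genes were lower and 42.1% higher. ANXA2, the partner of S100A10, had 278, 319 and 308 TPM in OSM and 769.9, 589 and 635 TPM in CT, and fell by 1.13 on the log2 scale (SE 0.11, limma adjusted p = 8.19e-05). Its processed pseudogene ANXA2P2 was listed at 290.3 to 489.6 TPM, so the division of reads between the copies is uncertain. ANXA6 fell by 0.45 (SE 0.08) and ANXA11, a partner of S100A6, by 0.36 (SE 0.08). ANXA4 rose by 0.79 (SE 0.19) as deposited but was at -0.25 and called lower in corrected values, in which 6 annexins fell. Of all genes, 27.3% were lower and 23.7% higher in corrected values.

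In PF9363 versus OSM 3 annexins rose and 1 fell (6 and 1 in corrected values), where 11.3% of all tested genes were higher and 35.6% lower. The shares of all genes in corrected values were 27.7% and 24.6%. ANXA1, the partner of S100A11, had 482, 416 and 344 TPM in PF9363 and 215, 201 and 207 TPM in OSM, a log2 change of 0.98 (SE 0.23, limma adjusted p = 0.00508). ANXA3, which promotes angiogenesis, rose by 0.97 (SE 0.18). ANXA2 rose by 0.39 (SE 0.11), a call lost without OSM replicate 1 (0.33), and ANXA6 fell by 1.42 (SE 0.08). The mean TPM of ANXA1 in PF9363 was 1.99 times that in OSM, where the ratio for S100A11 was 2.53. In CBP300 versus OSM 3 annexins fell: ANXA3 by 0.66 (SE 0.18), ANXA11 by 0.48 (SE 0.08) and ANXA6 by 0.42 (SE 0.08), and the call for ANXA3 was lost without CBP300 replicate 2 (-0.63) or 3 (-0.54) or any 1 OSM library (-0.68 to -0.64). Of all tested genes, 13.3% were lower and 13.8% higher in CBP300 versus OSM. In PF9363 versus CBP300 4 annexins rose and 2 fell, where 14.5% of all tested genes were higher and 45.1% lower. ANXA3 was higher by 1.63 (SE 0.18, limma adjusted p = 2.73e-05). Without CT replicate 1 and PF9363 replicate 3, 5 annexins fell and 1 rose in OSM versus CT, 5 rose and 2 fell in PF9363 versus OSM, and 4 rose and 3 fell in CBP300 versus OSM. The shares of all tested genes in that fit were 16.9% lower and 41.5% higher in OSM versus CT, 17.3% higher and 42.8% lower in PF9363 versus OSM, and 36.1% higher and 21.9% lower in CBP300 versus OSM.

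The plasminogen system, which S100A10 serves at the cell surface, moved in both directions in OSM versus CT, with 3 of 7 tested genes higher and 2 lower, and 2 higher and 3 lower in corrected values. The share higher was near that of all tested genes, 42.1% of which were higher and 15.2% lower. In corrected values 23.7% of all genes were higher and 27.3% lower. Among the 3 higher as deposited was SERPINB2, at 1.3, 1.34 and 1.1 TPM in OSM and at most 0.333 TPM in CT. It met the filter of 1 TPM in 3 libraries only through OSM, so the filter favoured its being higher there. PLAU, the activator urokinase, had 89.4, 88.9 and 94.1 TPM in OSM and 161, 195 and 191 TPM in CT, a fall of 0.99 on the log2 scale (SE 0.08, limma adjusted p = 2.88e-05). PLAT, the tissue activator, was the other, at 41.0 ± 1.76 TPM in OSM and 59.3 ± 15.9 TPM in CT (-0.49, SE 0.17, limma adjusted p = 0.0291), and its call was lost without CT replicate 2 (-0.33) or 3 (-0.40) or any 1 OSM library (-0.51 to -0.45). In PF9363 versus OSM 3 rose and 2 fell, where 11.3% of all tested genes were higher and 35.6% lower. Corrected values gave 4 higher and 1 lower, where 27.7% of all genes were higher and 24.6% lower. PLAUR, the urokinase receptor, had 167, 176 and 203 TPM in PF9363 and 50.6, 51.2 and 55.7 TPM in OSM, a rise of 1.77 (SE 0.09, limma adjusted p = 2.39e-07). PLGRKT, a plasminogen receptor, rose by 0.92 (SE 0.14) and PLAT by 0.72 (SE 0.17).

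In CBP300 versus OSM 5 of these 7 genes fell and PLGRKT rose, where 13.3% of all tested genes were lower and 13.8% higher. The 5 include SERPINB2, at most 0.414 TPM in CBP300, which entered the test only through its OSM values. The filter therefore favoured its fall. PLAU had 57.0, 56.1 and 56.5 TPM in CBP300 and 89.4, 88.9 and 94.1 TPM in OSM, a fall of 0.67 (SE 0.08, limma adjusted p = 0.000279), and PLAUR fell by 0.55 (SE 0.09). S100A10 itself was not called in this comparison. In PF9363 versus CBP300 6 of the 7 rose, where 14.5% of all tested genes were higher and 45.1% lower. PLAUR was at 2.32 (SE 0.09).

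**Figure D4:**
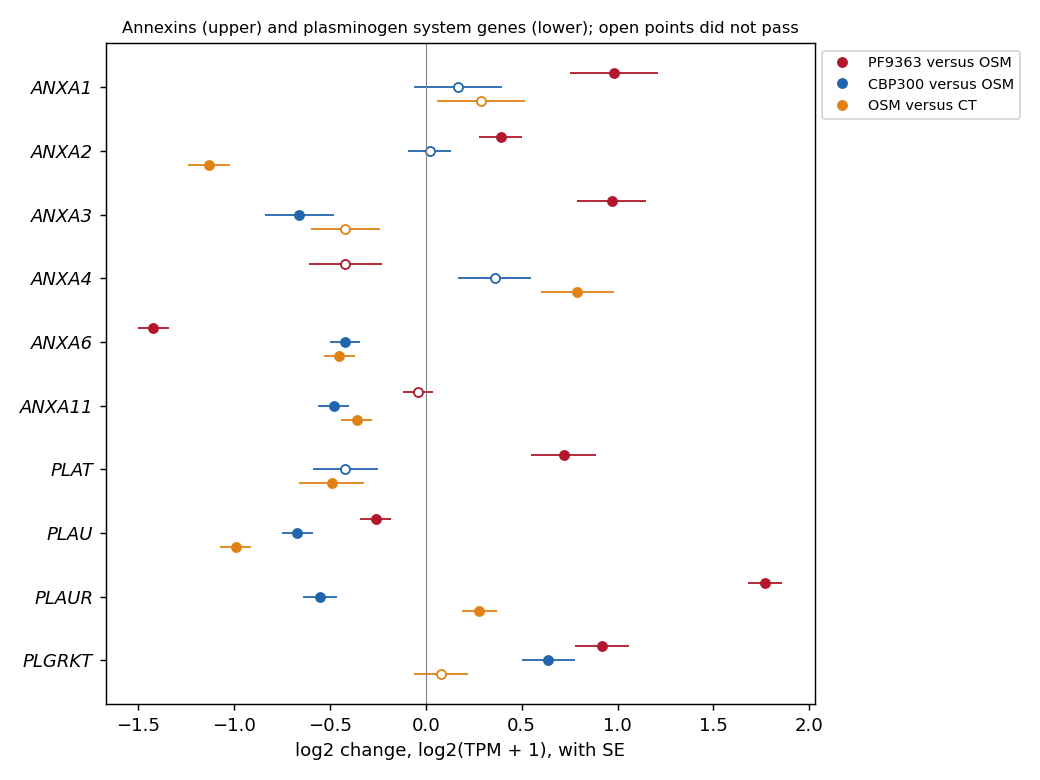
Log2 change on the log2(TPM + 1) scale with SE (limma) in 3 comparisons, for the annexins and plasminogen genes whose log2 changes are given in the text. Filled points passed an adjusted p of 0.05. ANXA2 lies at -1.13 in OSM versus CT, and PLAUR lies at 1.77 in PF9363 versus OSM and at -0.55 in CBP300 versus OSM.

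Of the proteins that S100 members bind, 13 of 19 genes on the list were tested, and in OSM versus CT 10 rose (42.1% of all tested genes were higher). Corrected values gave 4 higher and 5 lower, where 23.7% of all genes were higher and 27.3% lower. PPFIBP1, a liprin bound by S100A4, rose by 1.39 (log2, SE 0.24, limma adjusted p = 0.00191), with 0.41 in corrected values. MYH10, a nonmuscle myosin heavy chain, had 82.9, 75.2 and 75.6 TPM in OSM and 23.8, 46.1 and 39.6 TPM in CT, a rise of 1.12 (SE 0.23) that was 0.39 in corrected values. AHNAK, a giant scaffold that binds S100A10 with annexin A2, rose by 1.17 (SE 0.31), but was at 0.33 and not called in corrected values. In PF9363 versus OSM 2 rose and 2 fell, where 11.3% of all tested genes were higher and 35.6% lower. Corrected values gave 7 higher and 1 lower, where 27.7% of all genes were higher and 24.6% lower. MYH10 had 22.5, 20.7 and 13.6 TPM in PF9363 and 82.9, 75.2 and 75.6 TPM in OSM, a fall of 2.01 (SE 0.23, limma adjusted p = 4.68e-05). In CBP300 versus OSM AHNAK rose by 1.02 (SE 0.31, limma adjusted p = 0.0336), a call lost without any 1 CBP300 library (0.92 to 1.07) or without OSM replicate 2 (0.98) or 3 (0.93), and TPM1, a tropomyosin, fell by 0.90 (SE 0.12). These were the only calls on the list in CBP300 versus OSM as deposited, where corrected values had 2 genes higher and 5 lower. Of all genes, 13.8% were higher and 13.3% lower as deposited, and 17.5% and 14.3% in corrected values. The fit without CT replicate 1 and PF9363 replicate 3 had 5 higher and 4 lower, with 36.1% of all tested genes higher and 21.9% lower. MYH9, the myosin best known as a partner of S100A4, averaged 565 ± 107 TPM in PF9363, 512 ± 21.4 TPM in CBP300, 580.4 ± 7.3 TPM in OSM and 379 ± 100.2 TPM in CT. CACYBP, the partner of S100A6, averaged 105 ± 5.56 TPM in PF9363, 95.9 ± 2.99 TPM in CBP300, 101 ± 2.49 TPM in OSM and 96.2 ± 17.1 TPM in CT.

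Among 7 tested receptors for secreted S100 proteins, AGER (the receptor for advanced glycation end products) had 8.01, 6.59 and 9.33 TPM in PF9363, 9.99, 10.5 and 10.5 TPM in CBP300, 17.1, 19.9 and 20.3 TPM in OSM, and 28.9, 21.8 and 23.7 TPM in CT. It fell by 1.17 (log2, SE 0.14, limma adjusted p = 5.76e-05) in PF9363 versus OSM and by 0.83 (SE 0.14, limma adjusted p = 0.00179) in CBP300 versus OSM. BSG, a receptor that binds S100A9, rose by 0.52 (SE 0.09, limma adjusted p = 0.000832) in PF9363 versus OSM. Over the list, 3 rose and 3 fell in OSM versus CT, 1 rose and 2 fell in PF9363 versus OSM, and AGER alone was called in CBP300 versus OSM. In the first of these 42.1% of all tested genes were higher and 15.2% lower, so the receptors' share higher was near that of all genes but their share lower was above it. In PF9363 versus OSM 11.3% of all tested genes were higher and 35.6% lower. In CBP300 versus OSM 13.8% were higher and 13.3% lower. The receptor counts in corrected values were 1 and 4 in OSM versus CT, 2 and 1 in PF9363 versus OSM, and 1 and 2 in CBP300 versus OSM. The shares of all genes there were 23.7% and 27.3%, 27.7% and 24.6%, and 17.5% and 14.3%. Without CT replicate 1 and PF9363 replicate 3 the receptor counts were 3 and 3, 1 and 4, and 4 and 2 in the same comparisons, with the shares of all genes given for the annexins.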

How the data were processed

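The authors deposited 1 table of TPM values (transcript abundance scaled to 1 total per library, 60623 genes, 12 libraries), made with Trimmomatic 0.40, Bowtie2 and RSEM 1.3.3 on GRCh38 per the submitters' processing notes; libraries were stranded mRNA, per the labels' protocols, and whether counting used strand is not given in the sources used here. TPM is scaled within each library, so a change in a few abundant genes shifts all others. The 16848 genes that reached 1 TPM in 3 or more libraries were fitted as log2(TPM + 1) with limma 3.58.1 (R 4.3.3; 1 model over all 4 groups, trend in the moderation, Benjamini-Hochberg adjustment over all tested genes, called at an adjusted p under 0.05). A gene's TPM steps gave whole reads for 99.97% of tested genes (tolerance 0.001); these serve for counting error and the voom alternative. The script was tested on simulated data.

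The S100 members, the gene lists and the tests were chosen with earlier results of these data known. Beyond the members, the rule for naming took, per list and comparison, up to 4 called genes with the largest change and at least 5 TPM in the higher group, up to 2 of the highest level where few were called, best-known partners, every other tested S100 gene and the 3 nearest profiles; which of these to print was decided after their values were seen. Alternatives covered pseudocount, filter, scaling, GC and length trend, replicate block, groups fitted and each library left out; those leaving out CT replicate 1 and PF9363 replicate 3 together were chosen after seeing the data. Gene positions are from GENCODE release 29 and promoters from RefSeq (GRCh38.p14).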

Additional observations from a re-analysis of the deposited data

How the results depend on the processing

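Among the 8 S100 genes, leaving out 1 library at a time gave 7 to 8 called lower in OSM versus CT, 3 to 5 called higher and 0 to 1 lower in PF9363 versus OSM, 4 to 5 lower and 0 to 0 higher in CBP300 versus OSM, and 7 to 8 higher in PF9363 versus CBP300. Of all 16848 tested genes, these omissions called 1941 to 2700 lower in OSM versus CT. They called 1557 to 2335 higher and 4875 to 7263 lower in PF9363 versus OSM. The numbers were 1492 to 3031 lower and 1090 to 4692 higher in CBP300 versus OSM, and 2105 to 2779 higher in PF9363 versus CBP300. In PF9363 versus OSM 1 was called lower with quantile scaling and without CT replicate 1 and PF9363 replicate 3. Those settings called 3908 and 7207 of all tested genes lower. In CBP300 versus OSM 1 was called higher with quantile scaling, with the GC and length trend removed, with only the groups compared, without CT replicate 1 and PF9363 replicate 3, and with both of the last changes to the trend and the libraries. Of all genes, 3173, 2929, 6300, 6090 and 4834 were called higher under these settings, in the same order. Some single values turned: S100A16 in PF9363 versus OSM was 0.12 with median-of-ratios scaling; S100A6 in CBP300 versus OSM was 0.12 with the GC and length trend removed, and 0.10 with the 2 libraries left out as well; and ANXA4 in OSM versus CT was -0.25 and -0.14 under the same pair of settings. The cause was not tested. Of the members' values under alternatives, 784 kept direction and call, 24 gained the call, 17 lost it and 3 reversed. Leaving out a library of a group outside the comparison alters only the estimate of spread. In those alternatives the direction was therefore fixed in advance, and the tally is no measure of robustness. Of 18 same-numbered pairs, 3 had deviations correlated above 0.1 (range -0.48 to 0.23). Differently numbered pairs were not compared, so this cannot exclude that replicate numbers mark shared cultures or batches. With the replicate block 8 members were called lower in OSM versus CT, 3 higher in PF9363 versus OSM, 4 lower in CBP300 versus OSM and 7 higher in PF9363 versus CBP300. With that block 2403, 1763, 1948 and 2339 of all tested genes were called in the same comparisons and directions. Depth limited S100A2, S100A3 and S100A4, which rested on 1 to 36 reads a library outside CT.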

Other observations

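Of 39 tested EF-hand genes outside the S100 family, 12 rose and 10 fell in OSM versus CT, 8 rose and 12 fell in PF9363 versus OSM, and 7 rose and 9 fell in CBP300 versus OSM (limma, Benjamini-Hochberg adjusted p under 0.05). Of all tested genes, 42.1% were higher and 15.2% lower in OSM versus CT, 11.3% and 35.6% in PF9363 versus OSM, and 13.8% and 13.3% in CBP300 versus OSM. In values with the GC and length trend removed these counts were 4 and 19, 21 and 10, and 8 and 9, where 23.7% and 27.3%, 27.7% and 24.6%, and 17.5% and 14.3% of all genes were called. MYL6, a myosin light chain, fell by 1.19 on the log2 scale (SE 0.16, limma adjusted p = 0.000564) in OSM versus CT, and so did EHD1, an endocytic recycling protein (SE 0.08, limma adjusted p = 9.01e-06). In PF9363 versus OSM PLS1, an actin-bundling plastin, fell by 1.41 (SE 0.26). In CBP300 versus OSM PLS1 rose by 1.69 (SE 0.26), and MYL9, another myosin light chain, fell by 1.5 (SE 0.20). The 7 fused-type S100 genes were too low to test, with 4 at 0 in every library and a highest value of 0.863 TPM.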
